A study of Mus musculus with 7 samples.

Results

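The cell division cycle was followed through the mRNA of 40 listed genes in the ovarian stroma of mice with and without progesterone receptor (PGR). The genes were taken by name from a list and make up 40 of the 52230 genes to which reads were assigned. They comprise 6 genes of the G1/S transition (the commitment to DNA replication), 10 genes of S phase (DNA replication), 21 genes of G2/M (entry into and passage through mitosis) and 3 CDK inhibitors (proteins that hold the cyclin-dependent kinases in check). All 40 passed the filter on low counts and were tested, and the rule used no measured value. RNA-seq libraries were made from ovaries depleted of granulosa cells, from mice of the PRKO line (Pgr tm1Bwo), with 4 libraries from PGR +/+ (WT) and 3 from PGR -/- (KO) littermates. The allele is null in all cells of the animal, and each library was 1 pool of tissue from 3 mice, so a library carries no information on single animals. All mice were 21 to 25 days old by the design text, or up to 27 days by the protocol, and all had received 5 IU eCG and, 44 h later, 5 IU hCG, with ovaries taken 8 h post-hCG and punctured to release granulosa cells. The WT libraries are numbered 1 to 4 and the KO libraries 2 to 4.

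Progress through the cell cycle depends on cyclins, which activate cyclin-dependent kinases, and on waves of transcription that supply the replication and mitotic machinery when it is needed. E2F factors drive the genes of G1/S and S phase, while FOXM1 and the MuvB complex drive those of G2/M, many of them through a short promoter element called the CHR (cell cycle genes homology region) and nearby CCAAT boxes. In the ovary, granulosa cells of growing follicles are the main dividing cells, and they leave the cycle as they luteinize after the LH surge. Endothelial, theca and immune cells of the stroma can also divide.

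The promoters of 3 genes are shown. *Cdk1* is the most abundant G2/M member with both a CHR and a CCAAT match, and *Mcm3* the most abundant S phase member with an E2F match. *Cdkn1a* was taken as the CDK inhibitor with the lowest p in the comparison of KO with WT. Its window held none of the elements searched. Each window runs from 250 bases before to 50 bases after the start of the gene's most abundant coding transcript (GRCm39, 5′ to 3′ on the strand of the gene), so that it holds the promoter and the beginning of exon 1. Capitals mark the CHR (TTTGAA or TTCGAA), the E2F site (TTTCCCGC or TTTGGCGC) and the CCAAT box, each sought on both strands. *Cdk1*, the kinase that triggers mitosis, lies at chr10:69188719-69189018 on the minus strand. *Mcm3*, a subunit of the replicative helicase, lies at chr1:20890487-20890786 on the minus strand, and *Cdkn1a*, which encodes a CDK inhibitor that p53 induces, at chr17:29312488-29312787 on the plus strand.
Cdk1: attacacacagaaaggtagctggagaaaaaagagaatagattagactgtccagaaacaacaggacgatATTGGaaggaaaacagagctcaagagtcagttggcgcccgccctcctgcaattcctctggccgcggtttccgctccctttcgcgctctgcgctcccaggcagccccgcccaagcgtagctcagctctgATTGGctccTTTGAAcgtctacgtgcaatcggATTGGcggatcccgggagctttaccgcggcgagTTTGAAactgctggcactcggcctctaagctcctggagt
Mcm3: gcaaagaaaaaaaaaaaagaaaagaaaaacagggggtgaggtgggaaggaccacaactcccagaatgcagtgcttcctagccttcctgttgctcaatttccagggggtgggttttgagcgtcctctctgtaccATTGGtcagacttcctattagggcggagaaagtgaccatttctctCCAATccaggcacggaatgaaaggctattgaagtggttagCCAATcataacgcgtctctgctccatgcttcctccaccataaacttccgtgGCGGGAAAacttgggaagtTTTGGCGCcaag
Cdkn1a: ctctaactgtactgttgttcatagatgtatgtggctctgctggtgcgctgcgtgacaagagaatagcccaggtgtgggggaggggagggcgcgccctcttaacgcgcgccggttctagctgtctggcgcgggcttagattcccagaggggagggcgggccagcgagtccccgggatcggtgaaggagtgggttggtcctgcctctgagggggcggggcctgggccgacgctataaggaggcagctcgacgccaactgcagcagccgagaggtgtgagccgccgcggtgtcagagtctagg
With the start base as position 0, the *Cdk1* window held CHR matches at positions −45 and 11 and CCAAT boxes, all read on the opposite strand, at −182, −54 and −22. The *Mcm3* window held E2F matches at 19 and 38 and CCAAT boxes at −117, −72 and −32. No overlap between the marked motifs is present in these windows.

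Across the members, the windows differed by phase in the elements they held. A CHR match was present in 13 of 21 G2/M windows (61.9%), among them those of *Plk1*, *Aurkb*, *Bub1* and *Top2a*, against 2 of 10 S phase windows (*Mcm2*, *Rrm2*), 1 of 6 G1/S windows (*Ccnd2*) and 16.4% of the windows of 15636 coding genes tested. An E2F match was present in 4 of 10 S phase windows (*Mcm3*, *Mcm4*, *Mcm5*, *Mcm6*) and 2 of 6 G1/S windows (*E2f1*, *Ccnd3*), against 0 of 21 G2/M windows and 2.48% of all. CCAAT boxes were present in 18 of 21 G2/M windows (85.7%), 7 of 10 S phase windows (70.0%) and 38.6% of all. The 3 CDK inhibitors held neither a CHR nor an E2F match, and 2 of them (*Cdkn1b*, *Cdkn1c*) held a CCAAT box. These matches describe the letters of the windows and were not tested, and a window without a match says nothing of the factor.

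**Figure D1:**
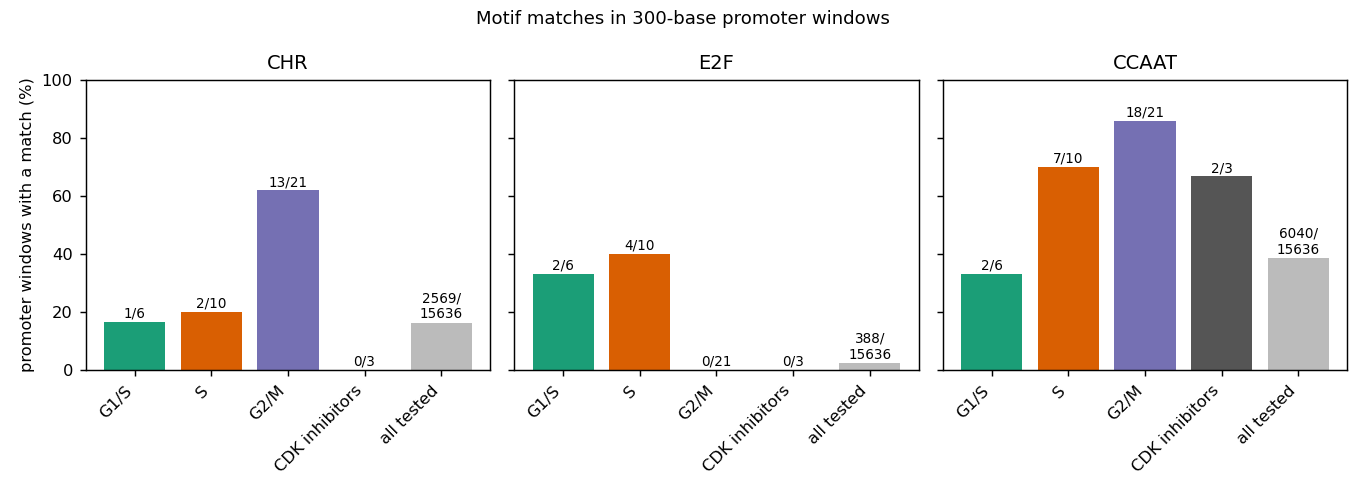
Share of promoter windows of 300 bases (y axis, %) that held a CHR, E2F or CCAAT match, for each phase group and for all coding genes tested, with the number of windows written over each bar. The CHR bar is highest for G2/M (13 of 21) and the E2F bar for S phase (4 of 10).

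Sequencing gave 47.4 to 63.4 M assigned reads per library. *Pgr* itself stood at 16.85 to 31.0 CPM (counts scaled to the TMM-normalized library size) in WT and at 6.13 to 7.56 CPM in KO, so no KO library reached any WT library. Its log2 fold change was −1.72, and its adjusted p lay just above the threshold in edgeR's quasi-likelihood test (0.0544) and far below it in DESeq2 (1.25e-14). In edgeR it was 0.00128 with no filter, 0.0472 with at least 10 counts per library, 0.0238 without WT replicate 2 and 0.0417 without WT replicate 4, and up to 0.258 (without KO replicate 2) in the other settings. Markers of stromal fibroblasts, theca, endothelium and smooth muscle, as the labelled tissue should hold, were all above 0, and so were those of cells that puncture should remove. The summed level of 11 granulosa markers ranged from 2427 to 3815 CPM in WT and from 3094 to 3851 CPM in KO, and that of 12 oocyte markers from 429 to 553 CPM in WT and from 493 to 720 CPM in KO, so granulosa and oocyte RNA was present in all 7 libraries. None of the marker genes of any list passed the test in edgeR. In these bulk samples, fewer dividing cells and less RNA per cell cannot be told apart.

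Transcripts of the cell cycle were abundant in the residual ovary. The mean level of a member over the 7 libraries ranged from 6.68 to 151 TPM (a level per transcript length, scaled to library size, that allows genes to be compared), with a median of 36.3 TPM against 8.83 TPM over all genes tested. *Pcna*, the sliding clamp of DNA polymerases, had the highest level of all members at 148 ± 7.26 TPM in the 4 WT and 154 ± 13.1 TPM in the 3 KO libraries (mean ± SD). *Cdk1* followed at 116 ± 11.9 TPM in WT and 128 ± 6.79 TPM in KO, and its highest library, at 135 TPM, lay below the lowest *Pcna* library, at 139 TPM. Within G1/S, the D-type cyclins *Ccnd3* (79.5 TPM over all libraries) and *Ccnd2* (41.0 TPM) stood above *Ccnd1* (14.1 TPM), and the E-type cyclins *Ccne1* (8.65 TPM) and *Ccne2* (6.98 TPM), which activate CDK2 at the start of replication, were lowest and overlapped each other in their libraries.

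The S phase genes formed a narrow band below *Pcna*. The 6 subunits of the MCM2–7 helicase lay between 32.9 TPM (*Mcm4*) and 56.6 TPM (*Mcm3*). The ribonucleotide reductase subunits *Rrm1* (53.3 TPM) and *Rrm2* (37.7 TPM), which make deoxyribonucleotides, and thymidylate synthase *Tyms* (55.9 TPM) were in the same range. Among the G2/M genes, *Top2a*, the topoisomerase that untangles replicated chromosomes, reached 74.2 TPM and *Ube2c*, an E2 enzyme of the anaphase-promoting complex, 69.8 TPM. The proliferation antigen *Mki67* had 20.9 TPM and the centromere motor *Cenpe* 8.04 TPM. Of the CDK inhibitors, *Cdkn1b* (46.9 TPM) and *Cdkn1a* (35.5 TPM) stood well above *Cdkn1c* (7.61 TPM), an imprinted gene.

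**Figure D2:**
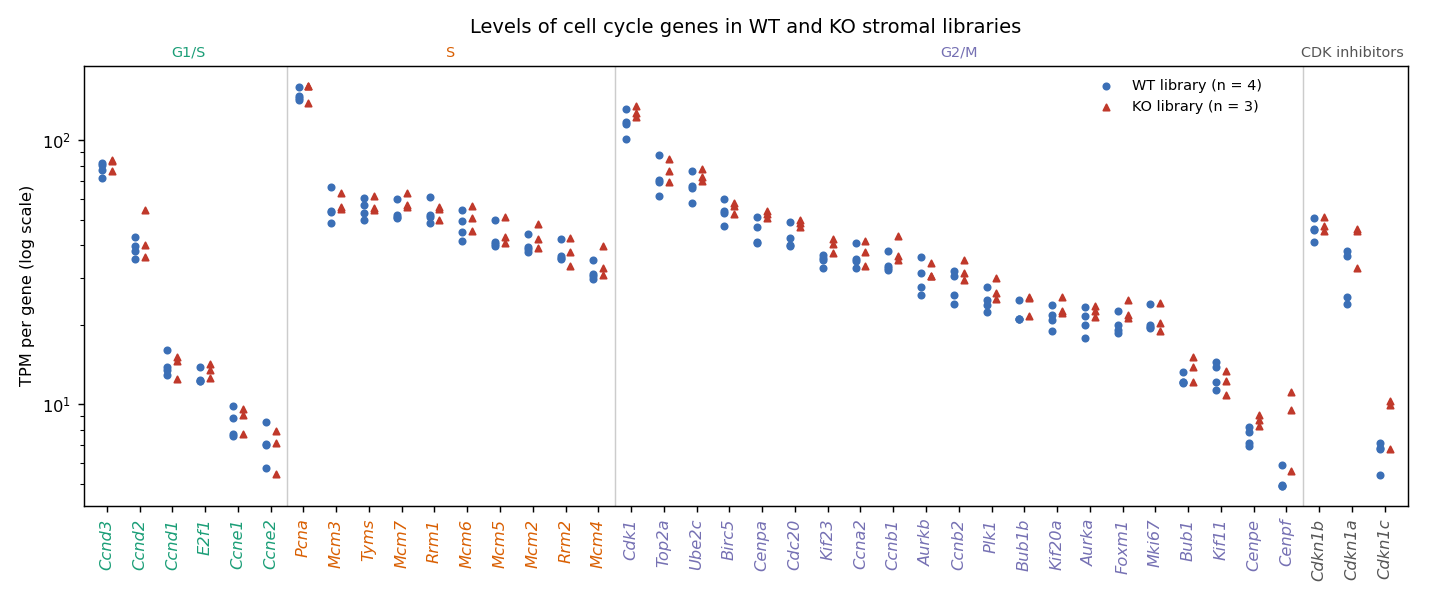
Level of each of the 40 members in TPM (log scale) in every WT library (circles, n = 4) and KO library (triangles, n = 3), ordered within each phase group by mean level. *Pcna* (151 TPM) and *Cdk1* (121 TPM) are highest, and the WT and KO points of most genes intermingle.

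In many members 1 transcript of the annotation dominated. *Mki67-201* made up 98.7% to 100.0% of the *Mki67* TPM in the 7 libraries, *Ccnb2* has a single transcript, and *Cdkn1a-201* made up 88.4% to 94.0% of its gene. *Tyms* differed, with 45.8% to 51.6% of its TPM on *Tyms-205*, a transcript annotated as a target of nonsense-mediated decay, and so did the centromeric histone *Cenpa*, with 41.1% to 49.7% on *Cenpa-202* of the same class. The shares of *Tyms-205* and *Cenpa-202* overlapped between the genotypes, with *Tyms-205* at 48.8% ± 2.39 in the 4 WT and 48.7% ± 0.318 in the 3 KO libraries (mean ± SD). Some other shares narrowly did not overlap. *Foxm1-201* made up 62.5% to 65.6% of its gene in WT and 57.0% to 62.4% in KO. The retained-intron transcript *Cdk1-204* made up 24.5% to 27.2% in WT and 27.3% to 28.0% in KO. These cases were picked from the leading transcripts of all members after their values were seen. Shares were not tested, and non-overlap was not counted over all transcripts, so it is not read as a difference between the genotypes. In *Cenpf*, a kinetochore protein, 50.5% and 31.0% of the TPM in KO replicates 3 and 4 fell on the short transcript *Cenpf-202*, which was listed at 0 in the other 5 libraries. Only 31.8 and 18.7 estimated reads lay behind these shares, against 1880 and 2470 reads on the main transcript *Cenpf-204* in the same libraries, so the part of the *Cenpf* TPM that fell on *Cenpf-202* rests on few reads.

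The comparison of KO with WT asks whether the loss of PGR altered proliferation-related transcripts in the stroma at 8 h post-hCG. No member was called a differentially expressed gene (DEG), 0 of 40, under the thresholds of 0.05 on edgeR's adjusted p and 0.5 on the size of the log2 fold change. Over all 19233 genes tested, 0.0104% were DEGs by this rule. DESeq2 and limma-voom also called 0 of 40 members, each with *Cdkn1a* alone at an unadjusted p under 0.05, and DESeq2 called 0.829% of the genes to which it gave an adjusted p. At an unadjusted p under 0.05, 1 member was higher in KO (*Cdkn1a*), beside 3.84% of all genes, and 0 were lower, beside 5.1% of all genes. In no member did all KO libraries lie above or below all WT libraries, beside 3.93% and 5.12% of all genes.

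The intervals show how large a change the data still allow. For 39 of the 40 members the 95% interval of the log2 fold change lay within −0.5 to 0.5, the exception being *Cdkn1a*, and for 39 of 40 the log2 fold change itself was under 0.2 in size. Over all genes tested, 13991 of 19233 were under 0.2 in size, and the intervals were not counted. The median size of the log2 fold change was 0.065 over the members and 0.097 over all genes tested. By sign alone, 34 members were higher and 6 lower in KO, with a median of 0.051 against −0.001 over all genes. This count rested on 1 library, since without WT replicate 2 only 22 of 40 were higher. In all 40 members the WT libraries alone spanned more than the difference between the genotypes, with a median range of 0.303 on the log2 scale. A range over single libraries tends to exceed a difference of group means, and this count was not made over all genes. It therefore describes the spread and does not bear on whether the genotypes differ.

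**Figure D3:**
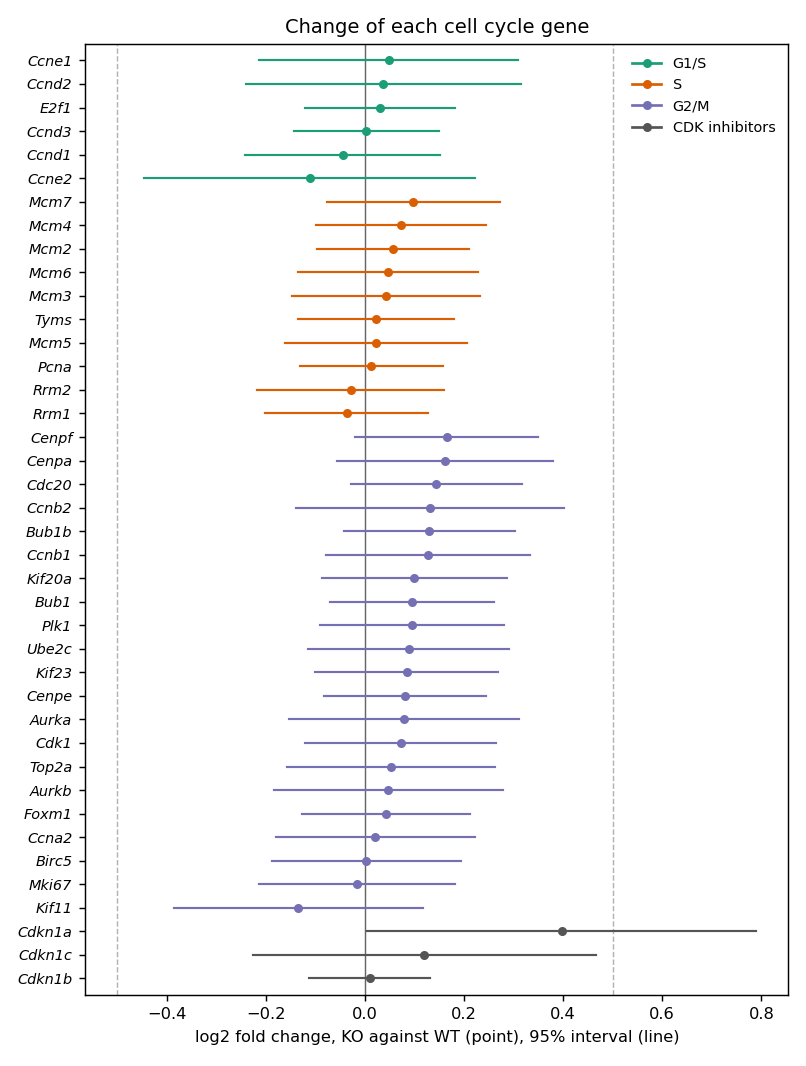
Log2 fold change of KO against WT (points) with its 95% interval (lines) for each member, by phase group, from edgeR with 4 WT and 3 KO libraries; dashed lines mark −0.5 and 0.5. Only the interval of *Cdkn1a* leaves this range, and only that interval leaves out 0.

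None of the 6 G1/S genes was called, and the 95% interval of each lay within −0.5 to 0.5. Their median log2 fold change was 0.017, with 4 of 6 higher in KO and a range from −0.111 (*Ccne2*) to 0.048 (*Ccne1*); without WT replicate 2 the median was −0.034, and without KO replicate 4 it was −0.016. *Ccnd2*, the D-type cyclin that drives granulosa cell division, stood at 170.4, 134.6, 169.4 and 149.8 CPM in WT replicates 1 to 4 and at 141, 147 and 192 CPM in KO replicates 2 to 4. The highest value belonged to KO replicate 4, the other KO libraries lay within the WT range, and the log2 fold change was 0.04 (standard error 0.12, 95% interval −0.24 to 0.32). It was −0.11 without KO replicate 4. *Ccnd3*, the D-type cyclin with the highest level here, had 97.9, 84.9, 94.1 and 96.6 CPM in WT and 98.5, 91.3 and 91.1 CPM in KO, a log2 fold change of 0.00 (95% interval −0.14 to 0.15). *Ccne2* had the widest spread of the group, with 13.7, 10.9, 13.8 and 9.53 CPM in WT and 10.04, 10.7 and 12.6 CPM in KO. All KO values of *Ccne2* lay within the WT range, and its log2 fold change of −0.11 had a 95% interval of −0.45 to 0.22. *E2f1*, the transcription factor that opens S phase, differed by 0.03 (95% interval −0.12 to 0.18).

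The replication genes were as close. The S phase median was 0.033, with 8 of 10 higher in KO and values from −0.037 (*Rrm1*) to 0.098 (*Mcm7*), and it was −0.003 without WT replicate 2. *Pcna* had 134, 124, 135 and 125 CPM in WT and 121, 138 and 132 CPM in KO, so that the KO libraries held both the lowest and the highest value of the 7. Its log2 fold change was 0.01 (standard error 0.06), and the 95% interval placed the KO level between 91.3% and 112% of WT. *Mcm3* had 82.7, 71.2, 86.6 and 71.5 CPM in WT and 75.1, 82.3 and 83.8 CPM in KO. All KO values of *Mcm3* lay within the WT range, and the log2 fold change was 0.04 (95% interval −0.15 to 0.23). All 6 MCM subunits had positive log2 fold changes, from 0.022 (*Mcm5*) to 0.098 (*Mcm7*), while both ribonucleotide reductase subunits had negative ones, and none of these had an unadjusted p under 0.2.

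Among the G2/M genes, 19 of 21 were higher in KO by sign, with a median log2 fold change of 0.084 and none past the test. Without WT replicate 2 the sign held for 12 of 21 and the median was 0.038. *Mki67* (chr7:135291513-135318299, GRCm39) had 142, 128, 157 and 130 CPM in WT and 128, 135 and 149 CPM in KO, all KO values within or at the edge of the WT range. Its log2 fold change was −0.02, with a standard error of 0.09. The 95% interval placed *Mki67* in KO between 86.2% and 113% of WT. *Top2a* had 153, 129, 165 and 147 CPM in WT and 144, 148 and 170 CPM in KO, a log2 fold change of 0.05 (95% interval −0.16 to 0.26). *Cdk1* had 71.4, 56.3, 72.4 and 66.5 CPM in WT and 70.5, 69.6 and 70.1 CPM in KO. The 3 KO values of *Cdk1* lay within 1 CPM of each other and inside the WT range, and the log2 fold change of 0.07 (95% interval −0.12 to 0.27) was −0.001 without WT replicate 2.

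The largest G2/M log2 fold changes were those of *Cenpf* (0.165), *Cenpa* (0.162), *Cdc20* (0.144), which activates the anaphase-promoting complex, and the mitotic cyclin *Ccnb2* (0.131). The lowest was that of *Kif11* (−0.134), the motor that separates the spindle poles. *Cenpf* had the lowest unadjusted p of the group (0.0743, adjusted p = 0.591 in edgeR). Mitotic kinases and their partners gave values in between, with *Plk1* at 0.095, *Bub1* at 0.095, *Aurka* at 0.078, *Aurkb* at 0.047 and its partner *Birc5* at 0.003. *Foxm1*, the transcription factor of the G2/M wave, differed by 0.04 (95% interval −0.13 to 0.21). When offsets for transcript length were used, the log2 fold change of *Cenpf* became 0.70 (unadjusted p = 0.00481, adjusted p = 0.354 in edgeR), the setting in which the few reads on *Cenpf-202* enter its length.

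The CDK inhibitors had a median log2 fold change of 0.120, which leaving out single libraries moved between 0.019 (without KO replicate 4) and 0.210 (without KO replicate 2), with 0.045 without WT replicate 4 and 0.182 without WT replicate 2. *Cdkn1a* (chr17:29309936-29319701, GRCm39), whose product arrests cells in response to p53 and other signals, had 29.1, 40.5, 28.4 and 42.8 CPM in WT and 52.7, 37.0 and 49.3 CPM in KO. KO replicates 2 and 4 were the highest of the 7 libraries, while KO replicate 3 lay below WT replicates 2 and 4. The WT mean was 35.2 ± 7.51 CPM (SD, n = 4) and the KO mean 46.3 ± 8.26 CPM (SD, n = 3). This gave a log2 fold change of 0.40, with a standard error of 0.17 and a 95% interval of 0.005 to 0.79. The unadjusted p was 0.0478 and the adjusted p was 0.551 in edgeR, so *Cdkn1a* did not pass the test. The unadjusted p rose to 0.171 without KO replicate 2, to 0.127 without KO replicate 4, to 0.111 without WT replicate 3 and to 0.0986 without WT replicate 1. It fell to 0.0373 without WT replicate 2, to 0.0167 without WT replicate 4 and to 0.0151 without KO replicate 3. The log2 fold change ranged from 0.294 to 0.540 over these settings, and the lowest adjusted p among them was 0.41.

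*Cdkn1b*, the inhibitor that rises as cells leave the cycle, had the narrowest range of all members, 1.09-fold over the 7 libraries. It stood at 88.5, 90.3, 89.1 and 96.0 CPM in WT and 88.3, 91.5 and 95.2 CPM in KO, a coefficient of variation of 3.75% in WT. Its log2 fold change was 0.01 (standard error 0.05), and the 95% interval placed KO between 92.6% and 110% of WT. *Cdkn1c* had 6.09, 6.56, 6.14 and 4.49 CPM in WT and 5.51, 6.25 and 7.19 CPM in KO. The groups overlapped, and the log2 fold change of 0.12 had a 95% interval of −0.23 to 0.47. With offsets for transcript length it was 0.40 (unadjusted p = 0.0408, adjusted p = 0.556 in edgeR); the retained-intron transcript *Cdkn1c-204* held 21.2 estimated reads in WT replicate 1, 0 in WT replicates 2 to 4, and 10.9, 37.8 and 17.0 in KO replicates 2 to 4.

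**Figure D4:**
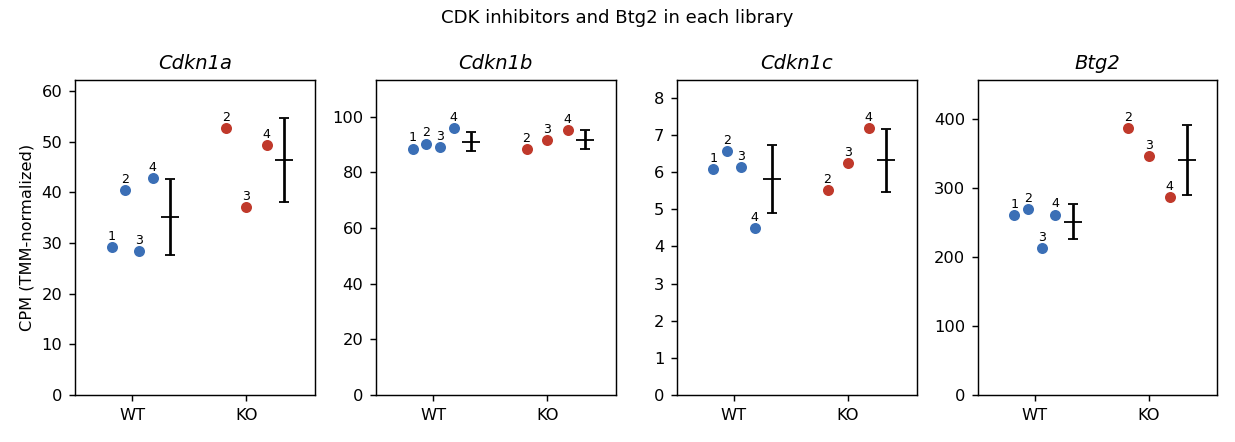
Level in CPM (y axes from 0) of *Cdkn1a*, *Cdkn1b*, *Cdkn1c* and *Btg2* in each library, labelled by replicate number, with the mean and SD of 4 WT and 3 KO libraries as bars. *Cdkn1a* overlaps between the genotypes (KO replicate 3 at 37.0 CPM, WT replicate 4 at 42.8 CPM), whereas the KO values of *Btg2* all lie above the WT values.

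Most members moved together between the WT libraries, and the order within the KO libraries was not counted. In 34 of the 37 members other than the CDK inhibitors, WT replicates 1 and 3 were both above WT replicates 2 and 4, and this held for 21 of 21 G2/M genes, 9 of 10 S phase genes and 4 of 6 G1/S genes. WT replicate 2 was the lowest of the 7 libraries for 27 of the 37. For 2 of the 3 CDK inhibitors the order was the opposite, with WT replicates 2 and 4 above WT replicates 1 and 3. The mean log2 CPM of the 21 G2/M genes, relative to its WT mean, was 0.112, −0.175, 0.143 and −0.080 in WT replicates 1 to 4 and 0.039, 0.077 and 0.124 in KO replicates 2 to 4. The WT libraries thus held both the highest and the lowest values, and the KO libraries lay between them. In 20 of 21 G2/M genes the SD of log2 CPM was larger in WT than in KO, with a median coefficient of variation of 10.1% in WT and 4.48% in KO. These counts of order and spread were not made over all genes tested, so whether they are particular to the cell cycle genes was not tested. All genes were read in the same pools and are not separate observations of them. The difference between the highest and the lowest library was small in absolute terms, from 1.13-fold to 1.45-fold over these 37 genes with a median of 1.26-fold.

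The order among the WT libraries, replicates 1 and 3 above replicates 2 and 4, was also that of the mean log2 CPM of granulosa, stromal fibroblast, theca, smooth muscle and endothelial markers. It was not that of oocyte, leukocyte or red blood cell markers. For theca and endothelial markers it depended on the measure. Summed theca CPM was 10698, 11239, 11823 and 13671 in WT replicates 1 to 4, and summed endothelial CPM was 866.7 in WT replicate 2 against 854.6 in WT replicate 3. The mean log2 CPM of the 11 granulosa markers, on the same scale, was 0.308, −0.190, 0.197 and −0.315 in WT replicates 1 to 4 and −0.069, 0.021 and 0.382 in KO replicates 2 to 4, so WT replicates 2 and 4 were lowest here too. The 7 stromal fibroblast markers stood at 0.354, −0.218, 0.078 and −0.214 in WT and at −0.165, −0.054 and −0.122 in KO. The 12 oocyte markers followed another order, with −0.129, −0.060, 0.189 and 0.000 in WT and 0.274, 0.594 and 0.081 in KO, highest in KO replicate 3. Between the genotypes, 6 of 11 granulosa markers were higher in KO (median log2 fold change 0.037, 0 at an unadjusted p under 0.05) and 12 of 12 oocyte markers were (median 0.314, 7 at an unadjusted p under 0.05, beside 3.84% of all genes). Lower in KO were all 6 theca markers (median −0.432, 1 at an unadjusted p under 0.05), all 5 smooth muscle markers (median −0.401, 4), 7 of 8 endothelial markers (median −0.127, 2) and 6 of 7 stromal fibroblast markers (median −0.123, 1), beside 5.1% of all genes. Of 10 leukocyte markers 4 were higher (median −0.042), and of 5 red blood cell markers 5 were (median 0.196), none at an unadjusted p under 0.05. The part of these cell types in the levels of the cell cycle genes was not tested.

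**Figure D5:**
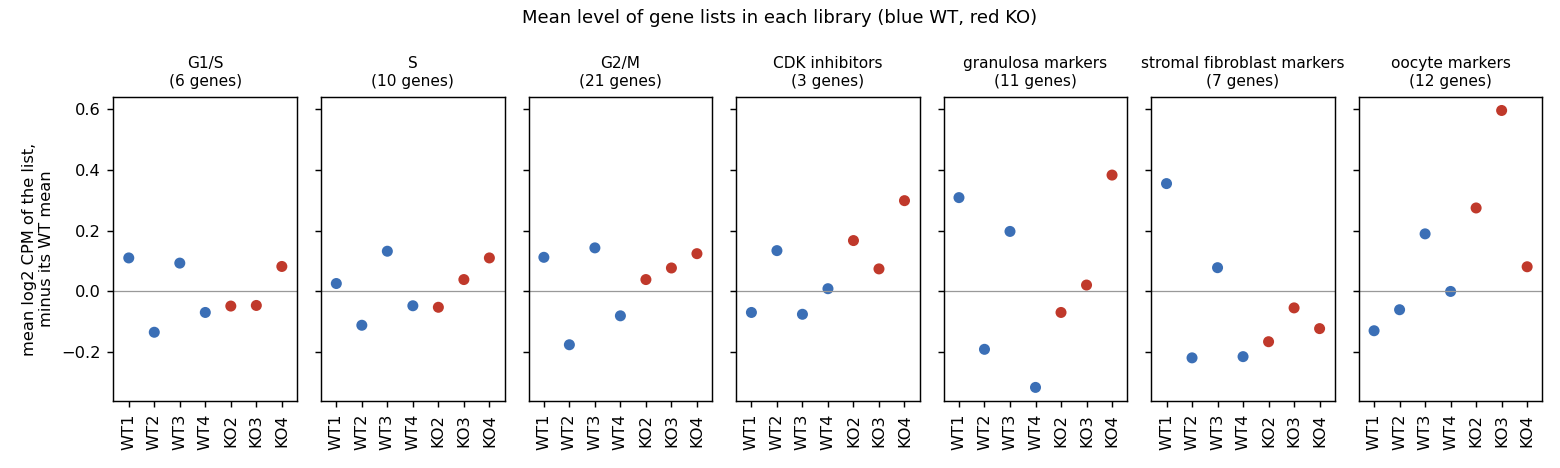
Mean log2 CPM of each phase group and of 3 marker lists in every library, minus the mean of the 4 WT libraries (blue WT, red KO). WT replicates 1 and 3 stand above WT replicates 2 and 4 for G1/S, S and G2/M genes and for granulosa and fibroblast markers, and the KO points fall within the WT range for the 3 phase groups.

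Other genes of the pathway, 121 in 5 lists, were read beside the members. None was a DEG in edgeR. By sign, with all 7 libraries, 97 were higher and 24 lower in KO (median log2 fold change 0.061), beside 9551 higher and 9682 lower over all genes tested. This count by sign was not repeated without WT replicate 2. That library had the lowest mean log2 CPM of the 7, relative to the WT mean, for other mitotic genes (−0.154) and other replication genes (−0.095). At an unadjusted p under 0.05, 9 were higher and 3 lower, beside 3.84% and 5.1% of all genes. All KO libraries lay above all WT libraries in 9 and below them in 2, beside 3.93% and 5.12% of all genes. Other G1/S regulators (18 genes, median 0.034), other replication genes (33 genes, median 0.057) and other mitotic genes (50 genes, median 0.068) had values like those of the members. At an unadjusted p under 0.05 there were 1 higher and 1 lower of 18, 1 higher of 33 and 2 higher of 50, beside the same shares over all genes.

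Among the G1/S regulators, the proto-oncogene *Mycn* had 15.1, 15.2, 17.5 and 11.46 CPM in WT and 19.6, 18.4 and 22.4 CPM in KO. All KO values lay above all WT values, with a log2 fold change of 0.45 (unadjusted p = 0.00927, adjusted p = 0.366 in edgeR). *E2f3*, an activating E2F, had 28.3, 28.75, 28.8 and 30.25 CPM in WT and 23.9, 24.4 and 28.2 CPM in KO. All KO values of *E2f3* lay below all WT values, KO replicate 4 only narrowly. Its log2 fold change was −0.19 (adjusted p = 0.478 in edgeR), while its relative *E2f2* differed by 0.17 (95% interval −0.04 to 0.37). Of the replication genes with the lowest p, the clamp loader subunits *Rfc2* and *Rfc3* differed by 0.16 and 0.14 and the fork protection gene *Timeless* by 0.14. Of the mitotic genes, the kinesins *Kif14* and *Kif4* differed by 0.24 and 0.17 and the spindle gene *Tacc3* by 0.19, with adjusted p values of 0.508, 0.546 and 0.568 in edgeR.

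Of the 5 other CDK inhibitors, 2 were higher and 3 lower in KO by sign, with a median log2 fold change of −0.010. As mean ± SD over 4 WT and 3 KO libraries, *Cdkn2a* stood at 1.07 ± 0.169 and 1.19 ± 0.116 CPM, *Cdkn2b* at 6.48 ± 1.06 and 7.33 ± 1.86 CPM, and *Cdkn3*, a phosphatase that acts on CDKs, at 4.27 ± 0.664 and 3.88 ± 0.169 CPM. The 95% interval of each of these 3 included 0.

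The 15 p53 and growth-arrest genes had the highest median of the pathway lists, 0.160, with 11 higher and 4 lower. At an unadjusted p under 0.05, 5 of 15 were higher, beside 3.84% of all genes, and 2 of 15 were lower, beside 5.1%. Their mean log2 CPM, relative to its WT mean, was 0.211, 0.166 and −0.018 in KO replicates 2 to 4, the last of which lay inside the WT range of −0.068 to 0.034. *Btg2*, an antiproliferative gene that p53 and growth factors induce, had 260.7, 269.0, 213.3 and 261.5 CPM in WT and 387.5, 346.9 and 287.5 CPM in KO. All KO values lay above all WT values, and the log2 fold change was 0.44 (standard error 0.11). The unadjusted p was 0.00396, and the adjusted p was 0.314 in edgeR and 0.0284 in DESeq2, where the log2 fold change (0.44) was under the 0.5 that a DEG requires. Over the other settings the adjusted p ranged from 0.142 (no filter) to 0.786 (without KO replicate 2). *Btg1*, of the same family, had 191.5, 176.1, 173.7 and 160.5 CPM in WT and 235.0, 234.4 and 179.0 CPM in KO, a log2 fold change of 0.30 (adjusted p = 0.424 in edgeR), with KO replicate 4 inside the WT range. *Sesn2*, a stress-induced inhibitor of mTORC1, had 21.2, 20.8, 20.8 and 23.8 CPM in WT and 24.9, 24.1 and 24.9 CPM in KO, a log2 fold change of 0.19 (adjusted p = 0.429 in edgeR). *Trp53* itself, which encodes p53, differed by 0.04, and its target *Mdm2* by 0.02. None of these genes passed the test in edgeR.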

How the data were processed

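RNA-seq was analysed in 7 libraries of granulosa cell-depleted ovary (4 WT, 3 KO), grouped by the genotype in the sample labels. The libraries were stranded mRNA libraries read as pairs of 100 bases. For each library the authors deposited expected counts from Salmon, that is, reads assigned in fractions to the transcripts of GENCODE M26 on GRCm39. The authors' files also hold TPM, in which Salmon had divided by effective length and set each library to the same sum, and the effective lengths. TPM served here for levels between genes and for shares of transcripts. It also weighted the mean effective length of each gene in the fit with offsets for transcript length, and entered no other test.

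Transcripts were matched by Ensembl identifier to GENCODE M39 on GRCm39, a later release of the annotation on the same assembly. The match held for 137570 of 139225 transcripts (98.8%), with 99.37% to 99.4% of the reads. Expected counts were summed per gene and rounded. Where near-identical copies of a gene exist, Salmon's estimate divides their reads, and this was not tested.

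KO was compared with WT in edgeR 4.0.16 under R 4.3.3 (TMM, filterByExpr, glmQLFit, glmQLFTest, two-sided), and p-values were adjusted by Benjamini–Hochberg over 19233 genes. Standard errors are the size of the log2 fold change over the square root of F, and 95% intervals use a t distribution with 8.86 degrees of freedom. The common biological coefficient of variation was 0.127, a value shared over the genes tested that need not hold for each gene. As each library is a pool, p-values set the difference between the genotypes against an estimated spread between pools. In edgeR this estimate also draws on the other genes. Scores are means of log2 CPM with a prior count of 2. Promoter windows were read from GRCm39. The code was tested on simulated data. Python 3.11.15, pandas 2.3.3 and matplotlib 3.10.9 were used.

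The alternatives were DESeq2 1.42.0 (the tool of the study), limma-voom (limma 3.58.1), median-of-ratios size factors, the count filter removed or replaced by a minimum of 10 in every library, offsets for transcript length, a replicate block and each library left out. All tests, alternatives and lists, and the 40 genes themselves, were chosen with earlier results of these data known. Named in full were *Mki67*, *Top2a*, *Cdk1*, *Pcna* and the CDK inhibitors, members with an unadjusted p under 0.05, the 2 most abundant members of each phase and the 2 with the largest spread, and the 3 pathway genes of lowest p in each list. The other members were named to give ranges and examples, and *Trp53* and *Mdm2* were named after their values were seen.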

Additional observations from a re-analysis of the deposited data

Results flagged for a closer look

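In the 44 sets of 4 WT values examined (the CPM of each named gene and the mean of each list, by Dixon's criterion for a value far from the rest), 3 stood apart, and chance flags about 1 in 20. *Btg2* was at 213 CPM in WT replicate 3, below the other WT libraries, with a gap to the nearest of 0.851 of the whole range. *Sesn2* was at 23.8 CPM in WT replicate 4, above the other WT libraries, with a gap of 0.868 of the range. The mean log2 CPM of the 15 p53 and growth-arrest genes, relative to its WT mean, was −0.068 in WT replicate 3, below the other WT libraries, with a gap of 0.833 of the range, and *Btg2* is one of these genes. None of the cell cycle genes named in full and no phase score stood apart in this way, and the 3 KO libraries are too few for the criterion.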

How the results depend on the processing

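No member was called under any of the 14 alternatives, although the number of DEGs over all genes was 2 in edgeR, 144 in DESeq2, 36 without a filter, 6 with at least 10 counts in every library, 23 with the replicate block and 1 to 4 with single libraries left out. The number of members at an unadjusted p under 0.05 and higher in KO was 1, and it was 2 with offsets for transcript length (*Cenpf*, *Cdkn1c*), 5 with the replicate block and 0 to 4 with single libraries left out: 0 without KO replicate 2 or KO replicate 4, and 4 without WT replicate 3 (*Bub1b*, *Cdc20*, *Cenpf*, *Mcm7*). The median log2 fold change of the CDK inhibitors was 0.120, and 0.383 with length offsets. The G2/M median stayed positive, from 0.038 to 0.130, with single libraries left out.

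Small log2 fold changes changed sign. With single libraries left out, *Mki67* ranged from −0.078 to 0.047, *Ccnd2* from −0.110 to 0.119, *Ccnd3* from −0.040 to 0.035, *Cdk1* from −0.001 to 0.114, *Cdkn1b* from −0.015 to 0.045, *Cdkn2b* from −0.042 to 0.317, *Pcna* from −0.025 to 0.062 and *Top2a* from −0.021 to 0.107. The cause was not tested. In the fit with the replicate number as a block (numbers 2 to 4), *Mki67* was at 0.005, *Cdkn1a* had an unadjusted p of 0.00213 and an adjusted p of 0.149, and 5 members were higher at an unadjusted p under 0.05. The labels name no pairing, so the block was set from the shared numbers. Deviations of same-numbered libraries correlated by −0.013, 0.106 and 0.085 over genes, with 4 of these 6 libraries closest to their own number. Whether same-numbered libraries were paired was not tested.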
